A study of Mus musculus with 4 samples.

Results

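The histone genes of mouse were followed here in regulatory T (Treg) cells of the large intestine (LI) that carried or lacked the histone methyltransferase Setd2. The members were the genes of the deposited expression table whose names start with Hist1h, Hist2h, Hist3h or Hist4h, the replication-dependent genes, or with H1f, H2af or H3f, the variant genes. Names containing -ps were left out. The rule found 87 members among 53379 genes, 69 of them Hist genes and 18 with variant-type names. Of the 87 members, 52 had a mean FPKM of at least 1 over the 4 libraries and are called expressed below, 43 Hist genes and 9 variant genes. FPKM counts fragments per kilobase of transcript, scaled to the mapped fragments of the library, so levels of different genes can be compared per annotated length. At the edge of this limit, *Hist1h2bn* had a mean of 1.04 FPKM and *Hist1h3g* a mean of 0.865 FPKM.

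The data comprised 2 control and 2 KO libraries of poly(A) RNA from CD3+CD4+YFP+ cells sorted from the LI of C57BL/6 mice, 6 to 12 weeks old and at steady state. Control mice were *Foxp3* Cre-YFP *Setd2* f/+ and KO mice *Foxp3* Cre-YFP *Setd2* f/f, so both groups carried Cre under the *Foxp3* gene and the controls had already 1 floxed copy of *Setd2*. Deletion takes place in cells that express *Foxp3*, and each library was a pool of 2 to 3 littermate mice. Differences were tested with limma on log2(FPKM + 1) over the 11998 genes with a mean of at least 1 FPKM, and a gene is said to have risen or fallen when its unadjusted p was under 0.05, the threshold of the study.

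Some facts of the whole table bear on every value below. The 4 libraries shared nearly the same set of values at the same ranks (the largest spread at any of the 5000 highest ranks was 0.173%), so 2 libraries can hold exactly the same FPKM for a gene, and a change in total mRNA per cell could not be seen. The depth of the libraries is unknown. Control 2 listed fewer genes at 0 (28426) than control 1 (33957), KO 1 (33490) or KO 2 (33223). Among the 87 members it did not stand apart, with 19 at 0 beside 21 for control 1, 18 for KO 1 and 17 for KO 2. What caused the difference over all genes, and its part in the values below, was not tested. *Setd2* itself had 38.19 and 27.36 FPKM in the control libraries and 26.33 and 36.30 FPKM in the KO libraries, and a value for the whole gene does not check the removal of floxed exons. *Ctla4*, a Treg marker, reached 1593.26 to 2310.35 FPKM, whereas *Foxp3* was listed at only 2.62 to 5.61 FPKM. The 6 Treg markers, all above 0 and led by *Ctla4*, summed to 2211.77 and 2409.21 FPKM in control and 2756.47 and 2866.80 FPKM in KO. *Ctla4* had 1593.26 and 1700.67 FPKM in control and 2159.97 and 2310.35 FPKM in KO. *Il2ra* was lower in KO, with 183.66 and 180.37 FPKM in control and 152.14 and 162.77 FPKM in KO. The higher sum in KO is therefore that of *Ctla4* and not a rise shared by the list. Summed markers of B and plasma cells (5 of 5 genes above 0, led by *Igkc*) lay between 873.98 and 1336.64 FPKM, those of myeloid cells (5 of 5, led by *Lyz2*) between 177.54 and 221.66, those of CD8 T and NK cells (4 of 4) between 2.49 and 3.55, and those of erythroid cells (2 of 2) between 1.52 and 21.73. The ranges of control and KO libraries overlapped for all 4 lists. Epithelial markers (6 of 6, led by *Epcam* at a mean of 25.0 FPKM) were lower in KO, with 33.07 and 35.42 FPKM in control and 27.17 and 28.39 FPKM in KO. Only 2 of them had a mean of at least 1 FPKM. Stromal and endothelial markers (4 of 4, led by *Pecam1* at a mean of 40.7 FPKM) were higher in KO, with 36.90 and 40.24 FPKM in control and 54.86 and 47.83 FPKM in KO. Here too only 2 had a mean of at least 1 FPKM. Most of the epithelial sum came from *Epcam* and most of the stromal and endothelial sum from *Pecam1*. Neither sum therefore shows a change shared by its list. No marker of these lists was at 0 in all libraries. Their part in the differences reported below was not tested, and in sorted bulk samples fewer cells of a type and less RNA per cell cannot be told apart.

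DNA is wound around an octamer of the core histones H2A, H2B, H3 and H4, and the linker histone H1 binds where the DNA enters and leaves. The replication-dependent genes lie in clusters, mostly lack introns and are transcribed in S phase, when new chromatin is built. Their mRNAs are the known exception among mRNAs of animals: they end in a stem-loop that the protein SLBP binds and carry no poly(A) tail. Most variant genes are transcribed throughout the cell cycle and give ordinary polyadenylated mRNAs. Variant proteins take over particular tasks, such as H3.3 at active genes or H2A.Z at promoters. Setd2 places trimethylation on lysine 36 of H3. Since the libraries were selected with oligo(dT), the FPKM of a Hist gene measures the RNA that this selection captured and not the whole pool of its mRNA. The same limit may hold for *H2afx*, a variant gene whose annotated transcript also has a stem-loop sequence.

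The sequences at the 3′ ends show the difference between both kinds of gene. In GENCODE M21 transcripts (GRCm38), a stem-loop motif of 16 bases (GG, 2 free bases, CTTTT, 1 free base, AG, 2 free bases, CC) was found on the sense strand in 44 of 69 Hist genes and in 1 of 18 variant-named genes, *H2afx*, compared with 20 of the tested genes that are no members (0.168%). Of all tested genes with a transcript, 0.117% held the motif on the antisense strand. The motif can be found only where the annotated transcript runs past the coding sequence. *Hist1h4k* (312 bases), *Hist1h2bl* (381 bases), *Hist1h2ai* (393 bases) and *Hist1h3h* (411 bases), among those without it, are annotated at coding length. A missing motif in such genes does not show that their mRNA lacks a stem-loop. The following sites were chosen because their genes are described below or, for *H2afx*, because it is the variant gene with the motif. Capitals mark the motif.
Hist1h2ap (chr13:21833029-21833044, minus strand): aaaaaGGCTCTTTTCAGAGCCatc
Hist2h2aa1 (chr3:96246032-96246047, plus strand): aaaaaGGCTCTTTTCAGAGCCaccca
Hist1h4m (chr13:21812129-21812144, plus strand): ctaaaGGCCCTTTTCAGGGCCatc
Hist1h1c (chr13:23739512-23739527, plus strand): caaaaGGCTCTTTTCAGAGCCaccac
Hist3h2a (chr11:58955172-58955187, plus strand): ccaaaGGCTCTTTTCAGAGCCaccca
H2afx (chr9:44335240-44335255, plus strand): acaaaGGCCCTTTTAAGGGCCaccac

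The stems fell into kinds by histone class. All 4 H1, 10 H2B and 8 H3 genes with the motif opened with GGCTC, as did 11 of 12 H2A genes. The 11 H4 genes opened with GGCCC (9 genes) or GGTCC (2 genes), and *H2afx* was the H2A gene with GGCCC. The motif sequence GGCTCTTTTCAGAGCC alone served 26 of the 45 genes. In 21 genes the motif lay within 60 bases of the annotated end, as in *Hist1h2ap* and *Hist1h4m*, where 3 bases follow it, and 15 of these were expressed. In the other 24 genes the annotated transcript ran on for 74 to 4884 bases past the motif, and 13 of these were expressed.

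Several annotated transcripts held both kinds of 3′ end. A poly(A) signal, AATAAA or ATTAAA in the last 50 bases, was found in 17 of 69 Hist genes and 11 of 18 variant-named genes, compared with 80.5% of all tested genes. The signals below belong to variant genes whose levels are discussed, and to *Hist1h1c* and *Hist3h2a*, whose transcripts carry a stem-loop 840 and 1643 bases before the end and a signal at the end. Capitals mark the signal.
H1f0: tttaaAATAAAactgg
H2afj: ggacaAATAAAgaata
H2afz: tactaATTAAAcagtg
Hist1h1c: cttctAATAAAaagcg
Hist3h2a: tgcccAATAAAataag

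The levels of the Hist genes are given here by these features, as a description. Of the 31 Hist genes with a stem-loop motif and no signal in the last 50 bases, 20 were expressed (64.5%), and their highest member, *Hist1h2ap*, had a mean of 148 FPKM. Of the 13 Hist genes with both features 7 were expressed (53.8%), of the 4 with the signal alone 3, and of the 21 with neither 13 (61.9%). The last class includes genes annotated at coding length, in which neither feature could be found. Median levels in these classes were 2.99 FPKM with the motif alone, 1.64 FPKM with both, 3.01 FPKM with the signal alone and 1.25 FPKM with neither. Over all 45 genes with the motif, the median was 4.88 FPKM where it lay within 60 bases of the annotated end and 1.65 FPKM where it lay farther away. FPKM divides by the annotated length, which in the latter genes includes the bases past the motif. Whether this lowered their levels was not tested.

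Variant genes made up most of the histone RNA in the libraries. *H3f3b*, one of both genes for H3.3, gave 56.1% of the summed mean FPKM of all members, *H2afz*, the gene for H2A.Z.1, gave 32.9%, and *H3f3a*, the other H3.3 gene, 2.82%. The 69 Hist genes together gave 4.65%. The 9 expressed variant genes had means between 8.22 and 7564 FPKM, and 6 of them exceeded 100 FPKM. Of the 43 expressed Hist genes 33 had means under 10 FPKM, 9 lay between 10 and 100 FPKM, and *Hist1h2ap* stood above 100 FPKM. *H1fx* and the testis-type genes *H1fnt*, *Hist1h1t* and *H2afb1* to *H2afb3* were among the 11 members listed at 0 in every library. A listing at 0 does not show that a gene made no RNA. *Hist1h2ah* and *Hist1h2aj*, also at 0, match *Hist1h2ai* (mean 8.21 FPKM) at 99.5% and 99.7% identity.

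**Figure D1:**
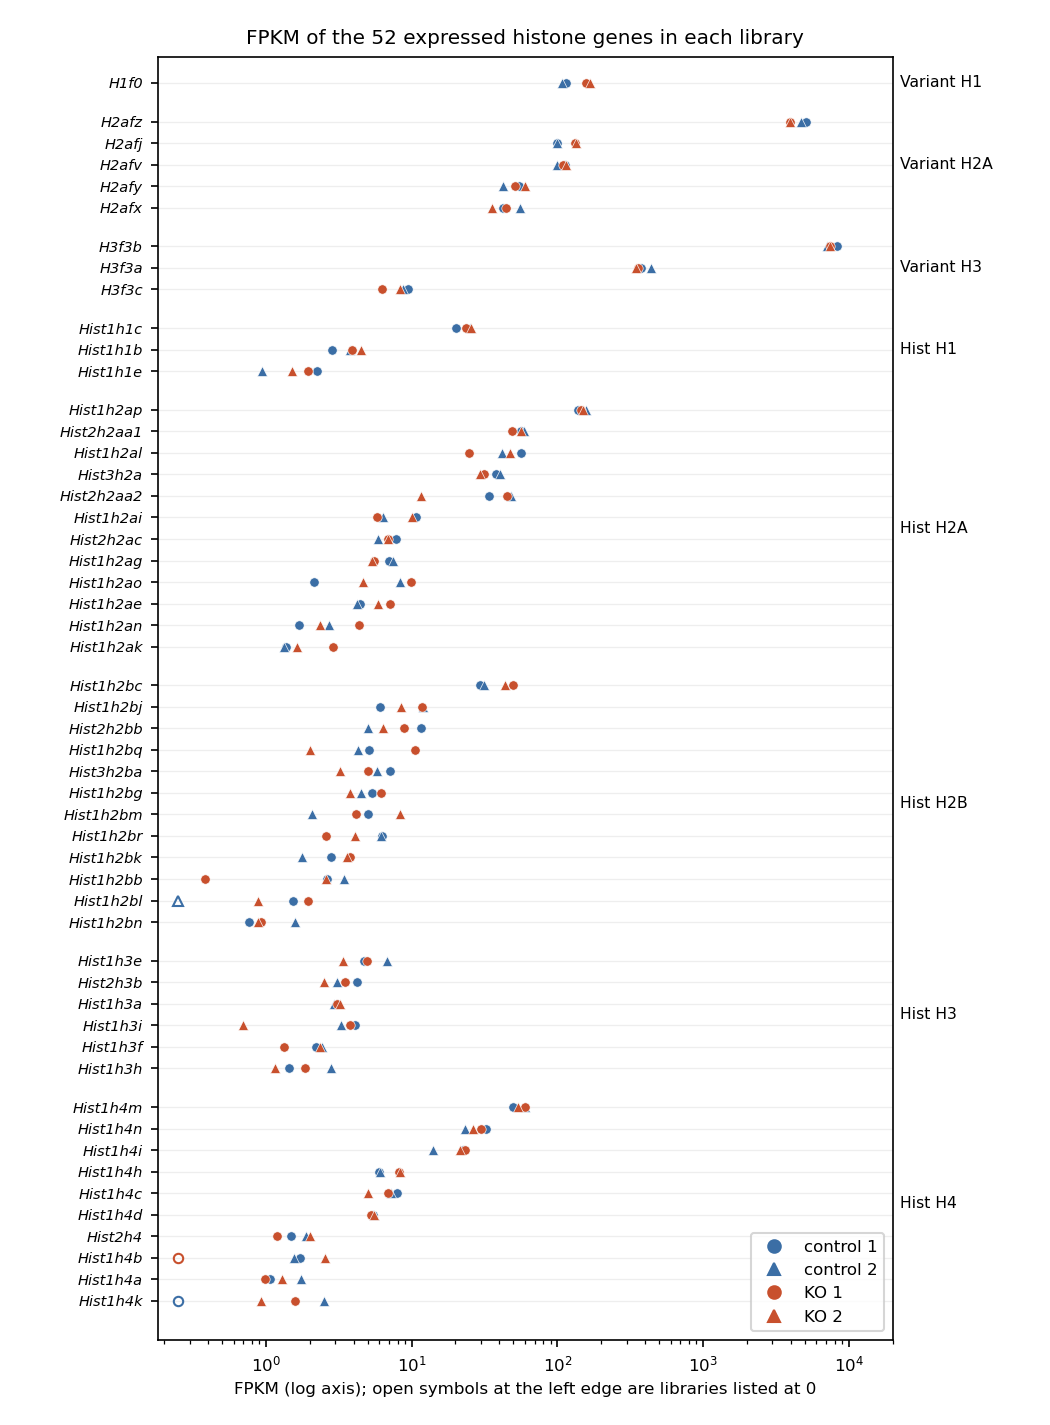
FPKM of the 52 expressed members (x axis, log scale) in control 1, control 2, KO 1 and KO 2, grouped by histone class and ordered by mean. *H3f3b* and *H2afz* lie at or above 3968.34 FPKM in each library, whereas 33 of the 43 Hist genes have a mean under 10 FPKM.

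No shared shift of histone RNA was detected between KO and control. Of the 52 expressed members, 3 rose (*H1f0*, *H2afj* and *Hist1h2bc*) and 3 fell (*H2afz*, *Hist3h2a* and *Hist1h2br*) in KO, which is 11.5%, compared with 12.4% of all tested genes (6.71% higher and 5.66% lower). The share among histone genes was thus close to the background. No member had an adjusted p under 0.05, the smallest being 0.193 for *H1f0* (limma, Benjamini-Hochberg), compared with 0.00833% of tested genes with KO higher and 0.0333% with KO lower (0.0417% in all, or 5 genes). The median log2 fold change of the members was -0.02, with 24 above and 28 below 0, compared with 0.00 for all tested genes. KO and control libraries did not overlap in 34.6% of members, with KO higher in 8 and lower in 10, compared with 44.6% of all tested genes (23.1% higher and 21.5% lower).

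**Figure D2:**
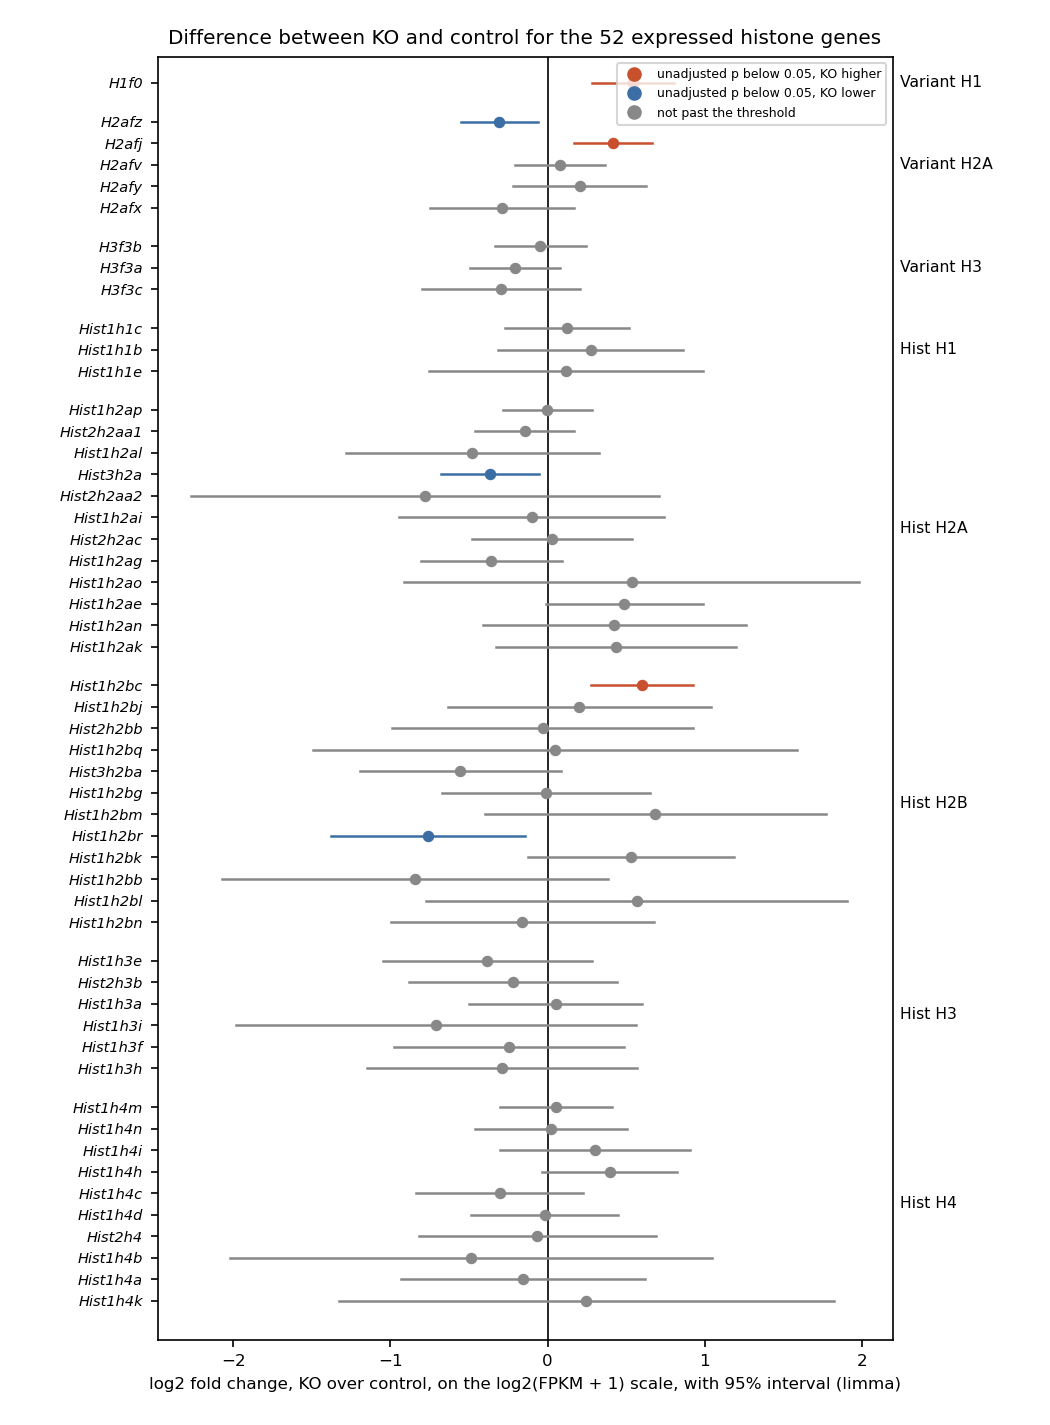
Log2 fold change of KO over control (points) with the 95% interval of limma (lines) for the 52 expressed members. The 3 genes that rose are in red, the 3 that fell in blue, and the intervals of all others include 0.

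The Hist genes overlapped between the groups also when summed. The 43 expressed Hist genes summed to 615.77 and 636.60 FPKM in control and to 628.72 and 591.30 FPKM in KO. The mean of KO over that of control gave a log2 difference of -0.038. The 9 variant genes summed to 14225.93 and 12649.42 FPKM in control and to 12258.86 and 12270.52 FPKM in KO, lower in both KO libraries with a log2 difference of -0.132 that was -0.045 without control 1. *H3f3b* and *H2afz* set this sum. Among Hist classes, H2A (log2 difference -0.149) and H3 (-0.368) lay lower in both KO libraries, H2B lay higher in both (0.26), and H1 (0.152) and H4 (0.064) overlapped. The H3 difference was -0.152 without KO 2 and -0.621 without KO 1, and that of H2B 0.121 without KO 1 and 0.387 without KO 2. The H2B sum was 83.45 and 77.88 FPKM in control and 105.50 and 87.72 FPKM in KO. Of this, *Hist1h2bc* alone gave 29.30 and 31.19 FPKM in control and 49.29 and 43.55 FPKM in KO. The H2A sum was 358.52 and 383.74 FPKM in control and 338.38 and 331.27 FPKM in KO. Of this, *Hist2h2aa1* with 2 near-identical genes gave 146.89 and 148.64 FPKM in control and 118.86 and 115.36 FPKM in KO. With these genes taken out of the sums, control and KO overlapped in both classes. Which genes to take out was chosen with their values known, so this overlap is a description and no test.

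Linker histones were represented by 4 expressed genes. *H1f0* encodes H1.0, the linker variant known to accumulate in cells that divide little. It had 114.83 and 107.02 FPKM in control and 157.44 and 166.50 FPKM in KO. Both KO libraries stood above both control libraries, and the log2 fold change was 0.54 (SE 0.105, limma, adjusted p = 0.193). The gene lies on chromosome 15 (GRCm38, 79028450 to 79030504, plus strand), has 1 exon and has no near copy in the annotation. *Hist1h1c*, the gene for H1.2 and the most abundant Hist linker gene, had 20.29 and 25.08 FPKM in control and 23.79 and 25.68 FPKM in KO. These ranges overlapped, with a log2 fold change of 0.13 (SE 0.158). *Hist1h1b* (H1.5) and *Hist1h1e* (H1.4) were low, with means of 3.75 and 1.66 FPKM, and neither passed the threshold.

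Variant H2A genes moved in both directions. *H2afz* encodes H2A.Z.1, which marks promoters and enhancers, and had 5114.15 and 4709.95 FPKM in control and 3968.34 FPKM in each KO library. Both KO libraries were lower, with a log2 fold change of -0.31 (SE 0.0977, limma, adjusted p = 0.328). The equal KO values arose because the gene held rank 20 in both libraries, so their spread of 0 is no measure of precision. The gene was not past the unadjusted threshold without control 1 (log2 fold change -0.25), without KO 1 (-0.31) or without KO 2 (-0.31). *H2afv*, the gene for H2A.Z.2, had 112.70 and 99.86 FPKM in control and 108.85 and 115.46 FPKM in KO. These values overlapped, and the log2 fold change was 0.08 (SE 0.115).

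*H2afj* encodes H2A.J, a replication-independent variant with a mean of 116 FPKM. It had 99.47 and 99.35 FPKM in control and 131.29 and 134.44 FPKM in KO. The groups did not overlap, and the log2 fold change was 0.41 (SE 0.0994, limma, adjusted p = 0.247). The gene lies on chromosome 6 (GRCm38, 136808244 to 136810074, plus strand) and has no near copy, and the gene on the opposite strand was listed at 0. *H2afx*, the gene for H2A.X, which is phosphorylated at DNA breaks, had 42.66 and 55.37 FPKM in control and 44.22 and 35.46 FPKM in KO. *H2afy*, the gene for macroH2A1, had 54.92 and 42.12 FPKM in control and 51.62 and 59.79 FPKM in KO. Neither of the latter passed the threshold, with log2 fold changes of -0.29 (SE 0.184) and 0.20 (SE 0.169). Over the 4 fits with a library left out they ranged from -0.47 to -0.10 and from 0.02 to 0.39. *H2afy2*, the gene for macroH2A2, was not expressed, with a mean of 0.0875 FPKM.

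The genes for H3.3, a substrate of Setd2 in the chromatin of active genes, did not pass the threshold. *H3f3b* had 8302.49 and 7085.14 FPKM in control and 7433.85 FPKM in each KO library, with rank 7 in both. Both KO values lay between the controls, and the log2 fold change was -0.05 (SE 0.116, 95% interval -0.33 to 0.24). *H3f3a* had 375.24 and 441.83 FPKM in control and 357.00 and 348.32 FPKM in KO. The KO libraries were lower here, but the log2 fold change of -0.21 (SE 0.115, limma, adjusted p = 0.52) was not past the threshold. Without control 1 it was -0.32 and past the unadjusted threshold, and without control 2 it was -0.09. *H3f3c*, annotated as a processed pseudogene, matches *H3f3a* at over 99% identity along its whole length, so its mean of 8.22 FPKM may hold reads of *H3f3a*. *H3f3aos*, caught by its name, is an antisense RNA with a mean of 0.0175 FPKM.

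The Hist genes were harder to read gene by gene because they resemble each other. Of the 43 expressed Hist genes, 34 had another gene at 95% identity or more over at least 50% of the transcript, and 38 had such a copy or shared a stretch with a shorter gene. RSEM divides reads among such copies. Linking members at 99% identity over 90% of the length gave groups whose sums depend less on this division. Links were chained, so the members of a group need not all match each other this closely. *Hist1h2ag*, in the group of *Hist1h2ap*, matches it at 97.8%, whereas *Hist1h2an*, at 98.7%, had no link within both limits and stayed outside. Copies that are no members also stayed outside, so the sums do not remove the division of reads.

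*Hist1h2ap*, the most abundant Hist gene, had 138.36 and 158.30 FPKM in control and 145.94 and 149.73 FPKM in KO. KO values lay within the range of control (log2 fold change 0.00, SE 0.113). Its group of 9 linked H2A genes summed to 159.78 and 183.42 FPKM in control and to 167.58 and 171.31 FPKM in KO, so that control and KO again overlapped. The H4 genes *Hist1h4m* (means 55.1 FPKM in control and 57.0 FPKM in KO) and *Hist1h4n* (27.9 and 28.0 FPKM) also did not differ beyond their spread, and their sum was 82.44 and 83.56 FPKM in control and 89.64 and 80.35 FPKM in KO. *Hist1h4i*, the third H4 gene by level, had a log2 fold change of 0.30 (SE 0.242) with overlapping groups. Without control 1 it was 0.64 and past the unadjusted threshold, and without control 2 it was -0.03.

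A set of 3 near-identical H2A genes behaved differently when summed. *Hist2h2aa1* had 56.65 and 59.36 FPKM in control and 48.65 and 56.29 FPKM in KO, *Hist2h2aa2* had 34.20 and 47.73 FPKM in control and 45.43 and 11.54 FPKM in KO, and *Hist1h2al*, a processed pseudogene that matches *Hist2h2aa2* at 99.4% identity, had 56.04 and 41.55 FPKM in control and 24.78 and 47.53 FPKM in KO. None of them passed the threshold, and *Hist1h2al* was past it without KO 2 (-0.93). The sum was 146.89 and 148.64 FPKM in control and 118.86 and 115.36 FPKM in KO, a log2 difference of -0.335 with little spread within either group. With each library left out the difference was -0.357 to -0.314. The limma fit with near-identical genes summed put the group past the unadjusted threshold (log2 fold change -0.33), where it was 1 of 3 histone genes lower in KO, with *Hist1h2br* merged into *Hist1h2bq*. This fit was added after the values were seen and gives no independent support. The group of *H3f3a* and *H3f3c* also lay lower in both KO libraries. It summed to 384.71 and 450.61 FPKM in control and to 363.25 and 356.68 FPKM in KO. Of all tested genes, 44.6% did not overlap between control and KO.

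**Figure D3:**
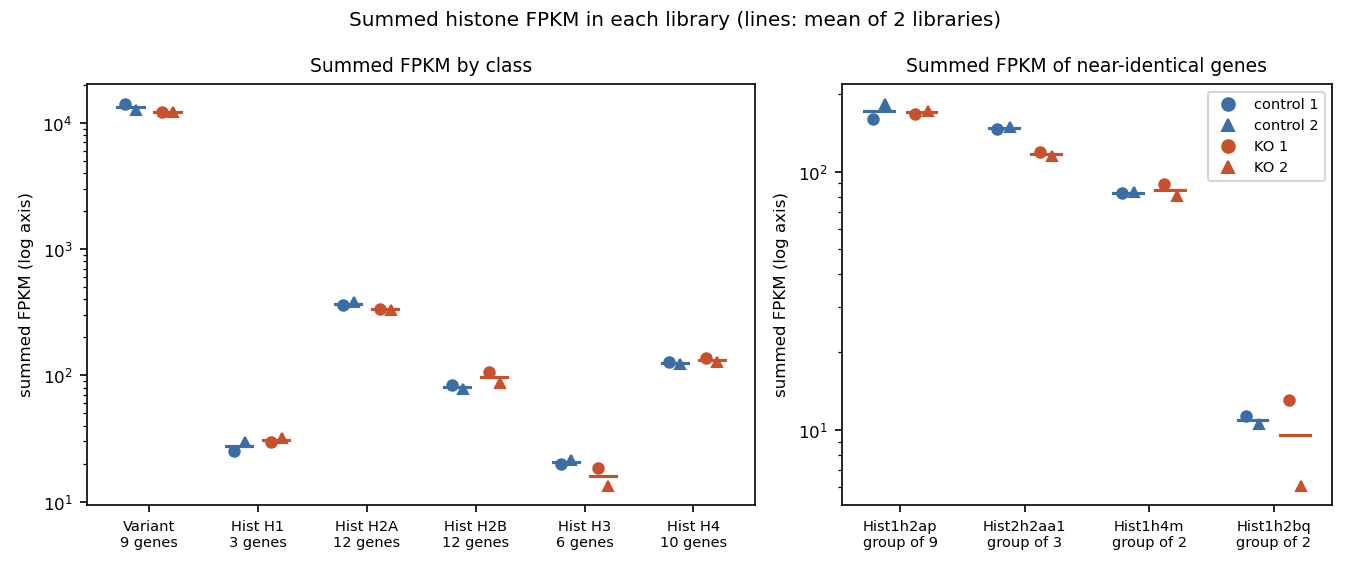
Summed FPKM (y axes, log scale) in each library for the histone classes (left) and for 4 groups of genes linked by near-identity (right), with lines at the mean of 2 libraries. The *Hist2h2aa1* group is at 146.89 and 148.64 in control and 118.86 and 115.36 in KO, whereas control and KO overlap in the other 3 groups shown.

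Of the 3 Hist genes past the threshold, *Hist1h2bc* and *Hist3h2a* had no near copy at 95% identity. *Hist1h2bc*, an H2B gene on chromosome 13 (GRCm38, 23684199 to 23692908, plus strand) annotated with a spliced transcript of 2 exons, had 29.30 and 31.19 FPKM in control and 49.29 and 43.55 FPKM in KO. Both KO libraries were higher, with a log2 fold change of 0.60 (SE 0.13, limma, adjusted p = 0.219). Neither the stem-loop motif nor a signal in the last 50 bases was found in its transcripts, which share a stretch with 7 shorter genes, the highest being *Hist1h2bj* at 9.62 FPKM. *Hist3h2a*, an H2A gene on chromosome 11 (GRCm38, 58954685 to 58956830, plus strand), had 38.08 and 40.64 FPKM in control and 31.28 and 29.33 FPKM in KO. The KO libraries were lower, with a log2 fold change of -0.37 (SE 0.124, limma, adjusted p = 0.344). With any 1 of the 4 libraries left out it was not past the unadjusted threshold, with log2 fold changes of -0.41 without control 1, -0.32 without control 2, -0.41 without KO 1 and -0.32 without KO 2. *Hist3h2ba*, its H2B neighbour, had 7.13 and 5.79 FPKM in control and 5.05 and 3.23 FPKM in KO. KO was lower in both libraries without passing the threshold (log2 fold change -0.55, SE 0.256).

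*Hist1h2br*, the remaining H2B gene past the threshold, had 6.23 and 6.18 FPKM in control and 2.58 and 4.07 FPKM in KO (log2 fold change -0.76, SE 0.247, limma, adjusted p = 0.335). It matches *Hist1h2bq* at 99.8% identity, and the sum of both was 11.29 and 10.48 FPKM in control and 13.06 and 6.06 FPKM in KO. Once both copies were added, control and KO overlapped. *Hist1h2br* was not past the unadjusted threshold without control 1 (-0.75), control 2 (-0.76) or KO 1 (-0.51). The log2 fold changes of the members ranged from -0.84 for *Hist1h2bb* to 0.69 for *Hist1h2bm*, both H2B genes at means under 5 FPKM, with SEs of 0.492 and 0.434, and neither passed the threshold. *Hist1h2bb* was at -1.54 and past the unadjusted threshold without KO 2 and at -0.15 without KO 1, and *Hist1h2bm* ranged from 0.20 without control 2 to 1.17 without control 1. *Hist2h2bb* (-0.03), *Hist1h2bj* (0.20) and the H3 genes *Hist1h3e* (-0.38), *Hist2h3b* (-0.22) and *Hist1h3a* (0.05) did not pass it either.

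Position in the genome was the next feature examined. Of the 69 Hist genes, 56 lie on chromosome 13, 10 on chromosome 3, 2 on chromosome 11 and 1 on chromosome 6. The large cluster on chromosome 13 (GRCm38, 21715763 to 23934851) holds 55 of them. Within the clusters, 14 pairs start head to head with 175 to 659 bp between them, 13 of these an H2A with an H2B gene. H2A and H2B enter the nucleosome as a dimer. Both genes were expressed in 6 pairs, and in 4 of these the means of the partners differed by less than 2-fold. Of the pairs with both means above 0, 5 differed by more than 5-fold. *Hist1h2bm* (mean 4.88 FPKM) and *Hist1h2bk* (2.99 FPKM) had partners at 0, *Hist1h2aj* and *Hist1h2ah*, so no ratio was formed. In 1 further pair both genes were at 0. The 3 highest of the ratios formed follow, in which *Hist1h2ac* and *Hist2h2be* lie under the limit of 1 FPKM. *Hist1h2bc* had a mean of 38.3 FPKM and its partner *Hist1h2ac*, 250 bp away, 0.518 FPKM, a ratio of 74.1 with the same order in 4 of 4 libraries. *Hist1h2ac* belongs to the linked H2A genes in the group of *Hist1h2ap*, so its own level is uncertain. *Hist2h2ac* exceeded *Hist2h2be* 43.6-fold and *Hist1h2ap* exceeded *Hist1h2br* 31.1-fold. *Hist2h2ac* matches *Hist1h2al* at 98.2% identity, so its level is uncertain too. FPKM divides by length, and in these 3 pairs the lower gene has the longer annotated transcript. The longest have 2482 bases in *Hist1h2ac* and 1156 in *Hist1h2bc*, and 2620 in *Hist2h2be* and 520 in *Hist2h2ac*. In *Hist1h2br* it has 2197 bases and in *Hist1h2ap* 482. How far length sets these ratios was not tested. *Hist1h2ao* and *Hist1h2bq*, copies of *Hist1h2ap* and *Hist1h2br* at 100% and 99.8% identity, differed only 1.14-fold. RSEM divides reads among such copies, so the levels within either pair are uncertain. *Hist1h2ae* and *Hist1h2bg*, 175 bp apart, differed 1.09-fold, with the order changing between libraries.

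**Figure D4:**
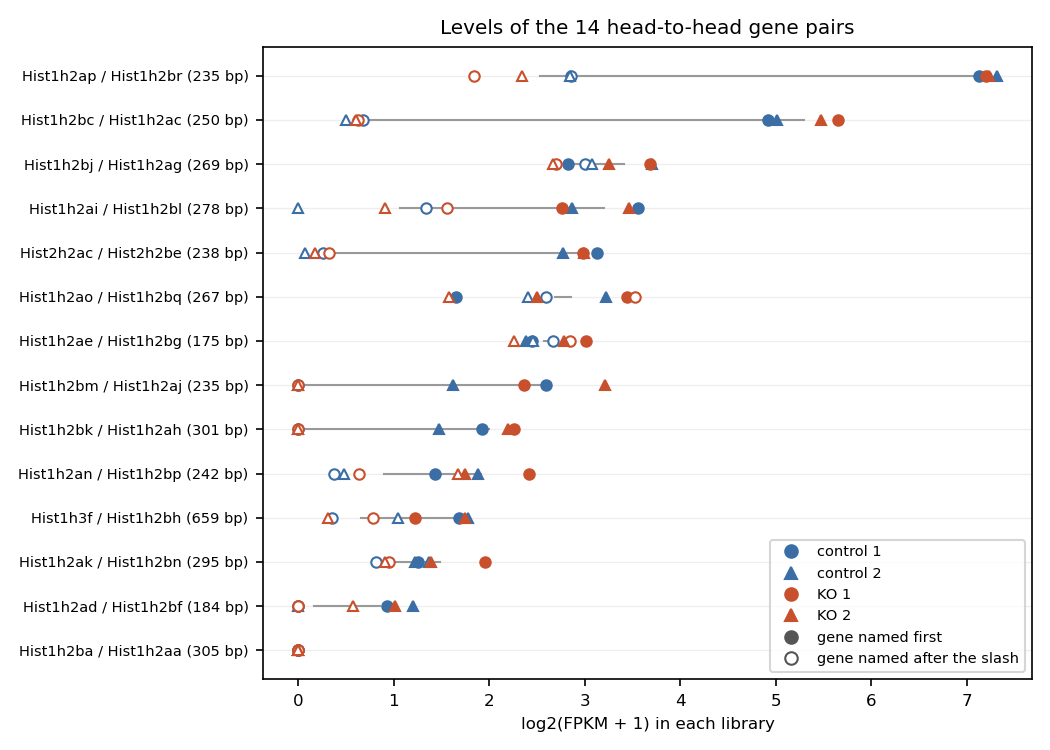
Levels of the 14 head-to-head pairs as log2(FPKM + 1) in each library (x axis), with filled symbols for the gene of higher mean, open symbols for its partner, a grey line between their means and the gap between the starts in brackets. *Hist1h2bc* and *Hist1h2ac* lie far apart in all 4 libraries, whereas *Hist1h2ae* and *Hist1h2bg* overlap.

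Promoters of the Hist genes shared short motifs with one another. RefSeq windows from 250 bases before to 50 bases after the start (GRCm38.p6) were matched for 77 members and searched on both strands. CCAAT was found in 6 of 6 windows of Hist H1 genes, 34 of 34 of H2A and H2B genes and 10 of 10 of H3 genes, but in 3 of 12 of H4 genes, compared with 66.7% of variant genes and 37.9% of 27025 genes. TATAAA was found in 55.9% of H2A and H2B windows and 66.7% of H4 windows, compared with 14.2% of all genes and 6.67% of variant genes. The octamer ATTTGCAT was found in 38.2% of H2A and H2B windows and 1.75% of all. AAACACA, known as the H1 box, was found in 83.3% of H1 windows and 7.14% of all. Windows of head-to-head partners overlap and are therefore not independent. Both windows below are shown for the pair of *Hist1h2bc* and *Hist1h2ac*, whose common gap the first one spans, and for the H1 class. Capitals mark the motifs on either strand.
Hist1h2ac (chr13:23683910-23684209, minus strand): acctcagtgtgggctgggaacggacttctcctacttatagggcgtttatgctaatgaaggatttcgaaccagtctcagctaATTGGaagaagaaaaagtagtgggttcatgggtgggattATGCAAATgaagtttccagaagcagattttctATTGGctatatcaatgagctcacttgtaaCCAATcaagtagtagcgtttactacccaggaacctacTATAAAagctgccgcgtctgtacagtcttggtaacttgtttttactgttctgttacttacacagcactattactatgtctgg
Hist1h1c (chr13:23738557-23738856, plus strand): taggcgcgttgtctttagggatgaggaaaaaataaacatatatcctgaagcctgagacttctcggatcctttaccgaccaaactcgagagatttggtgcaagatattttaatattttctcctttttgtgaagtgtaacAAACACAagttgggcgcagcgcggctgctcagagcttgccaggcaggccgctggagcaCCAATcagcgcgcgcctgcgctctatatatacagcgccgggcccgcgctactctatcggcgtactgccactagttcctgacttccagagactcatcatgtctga

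The window over the gap between *Hist1h2ac* and *Hist1h2bc* held 3 CCAAT sites, 1 octamer and 1 TATAAA in 300 bases. The RefSeq window of *H2afj* held 3 CCAAT sites and that of *H1f0*, whose RefSeq start lies upstream of the GENCODE start, none of the 4 motifs.

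The machinery that makes histone mRNA was examined through 22 genes of transcription and 3′ end processing. Of the 20 that were tested, 4 rose (20.0%, compared with 6.71% of all tested genes), none fell (5.66% of all), and none had an adjusted p under 0.05. *Cdk2*, the kinase that with cyclin E activates NPAT, had 26.09 and 26.67 FPKM in control and 33.80 and 35.82 FPKM in KO (log2 fold change 0.39, SE 0.124). *Eri1*, the exonuclease that trims the stem-loop end, had 24.09 and 26.20 FPKM in control and 32.09 and 36.66 FPKM in KO (0.43, SE 0.138). *Lsm10* (0.49, SE 0.173), of the U7 particle, and *Cpsf3* (0.33, SE 0.13), the endonuclease that cuts the precursor, rose as well. Control and KO did not overlap for these 4 genes, as for 55.0% of the list and 44.6% of all tested genes. Of the 4 fits with a library left out, *Lsm10* and *Cpsf3* stayed past the unadjusted threshold in the one without control 1 (log2 fold changes 0.66 and 0.42), *Eri1* in those without control 2 (0.49) and KO 1 (0.53), and *Cdk2* in none (0.35 to 0.43). *Slbp*, the gene for the stem-loop binding protein, had 416.57 and 358.79 FPKM in control and 395.65 and 361.24 FPKM in KO. *Slbp* (-0.03), *Npat* (-0.06), the coactivator of histone gene transcription, and *Casp8ap2* (-0.40), a partner in processing, did not pass the threshold. The median over the tested genes of the list was 0.17.

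Chaperones and deposition factors comprised 33 genes, all tested, of which 3 rose and 1 fell, with a median of -0.10. These 12.1% are close to the 12.4% of all tested genes. *Tonsl*, which binds new H3 and H4 behind the replication fork, had 277.49 and 237.60 FPKM in control and 375.24 and 430.20 FPKM in KO. Both KO libraries were higher (log2 fold change 0.64, SE 0.128, limma, adjusted p = 0.205). *Chaf1b*, a subunit of the replication-coupled chaperone CAF-1 (0.46, SE 0.143), and *Supt16*, a subunit of FACT (0.47, SE 0.156), rose. *Hira*, which deposits H3.3 outside replication, fell, with 4.08 and 2.77 FPKM in control and 1.68 and 1.75 FPKM in KO (-0.69, SE 0.267). The other H3.3 factors *Daxx* (-0.10) and *Atrx* (0.11), the H3 and H4 chaperones *Asf1a* (-0.30), *Asf1b* (0.38) and *Chaf1a* (0.31), and the H2A.Z factors *Srcap* (-0.28), *Ep400* (-0.36) and *Anp32e* (-0.23) did not pass the threshold. Over both lists 7 genes rose, and this number was 6 without control 1, 2 without control 2, 2 without KO 1, 1 without KO 2 and 1 when a replicate block was added. *Chaf1b* (0.41 to 0.51) and *Supt16* (0.41 to 0.53) were not past the unadjusted threshold with any of the 4 libraries left out, *Asf1b* was past it without control 1 (0.58) and *Asf1a* without control 2 (-0.50). *Tonsl* stayed past the unadjusted threshold in each of these fits. *Hira* did not without control 1 (-0.47), KO 1 (-0.67) or KO 2 (-0.71), nor with the block (-0.69).

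Genes of cell division were examined in the same libraries. Of 15 tested S phase genes 1 rose (6.67%, compared with 6.71% of all tested genes), *Mcm4* of the replicative helicase (log2 fold change 0.47, SE 0.108), and none fell, with a median of 0.19, whereas *Pcna* (0.09) did not pass the threshold. Of 14 tested genes of G2 and mitosis 6 rose (42.9%, compared with the same 6.71%) and none fell, with a median of 0.35 and no adjusted p under 0.05. *Top2a*, the topoisomerase of dividing cells, had 19.05 and 19.42 FPKM in control and 36.28 and 33.18 FPKM in KO (0.82, SE 0.131). *Cdk1*, the mitotic kinase, had 7.73 and 10.92 FPKM in control and 25.73 and 17.24 FPKM in KO (1.11, SE 0.257). *Cdc20* (0.76), *Ccnb1* (0.65), *Mki67* (0.62) and *Birc5* (0.56) rose too. *Top2a*, *Cdc20* and *Mcm4* stayed past the unadjusted threshold with each library left out. *Cdk1* did not without control 1 (0.89) or KO 1 (0.84), *Birc5* not without control 1 (0.63), control 2 (0.49) or KO 2 (0.40), *Ccnb1* not without control 2 (0.47), KO 1 (0.76) or KO 2 (0.54), and *Mki67* not without control 2 (0.50), KO 1 (0.63) or KO 2 (0.61). The list summed to 132.12 and 127.97 FPKM in control and 196.76 and 188.61 FPKM in KO, while the sums of the Hist genes overlapped. The difference between these lists and the histone genes was itself not tested.

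**Figure D5:**
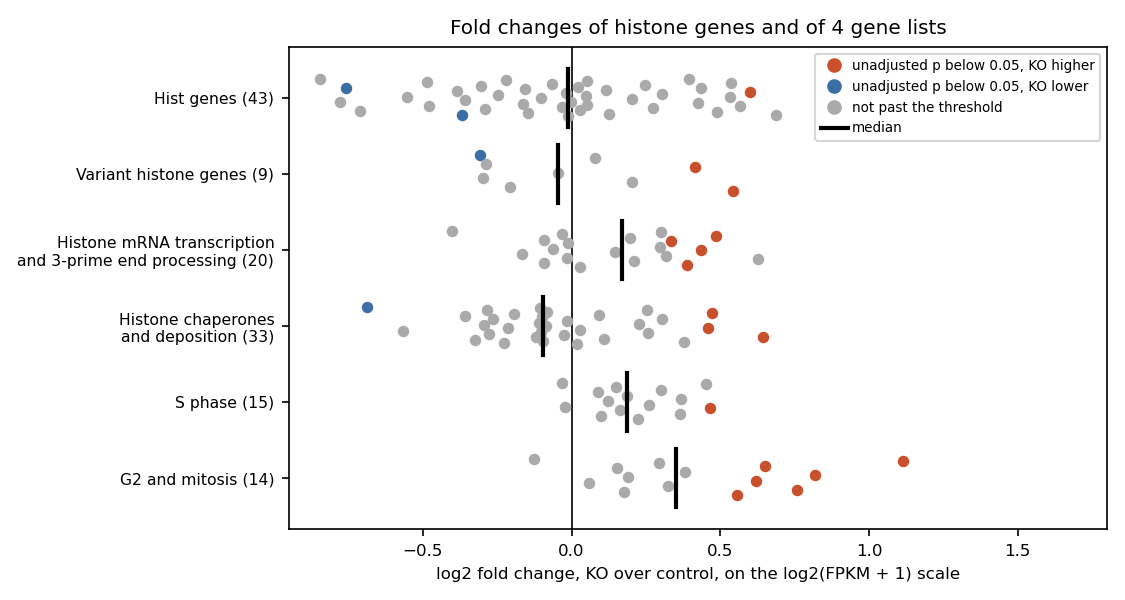
Log2 fold changes of KO over control (x axis) for the expressed Hist and variant genes and for 4 lists of genes, 1 point per tested gene, with a black line at the median. The median lies at 0.35 for G2 and mitosis, at 0.19 for S phase and at -0.01 for the 43 Hist genes.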

How the data were processed

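Poly(A) RNA of sorted LI Treg cells was sequenced in paired reads of 150 bp. The authors mapped reads to GRCm38 with STAR v2.5, quantified genes of GENCODE M16 with RSEM v1.2 and deposited FPKM, rounded to 2 decimals, for 4 libraries. Libraries hold equal or almost equal values rank by rank, as quantile normalization would leave them, but the methods name no such step. Neither strand use nor depth is given in the sources used here, so no counting error was computed, no count test could be run, and the precision is the spread between 2 pools.

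limma 3.58.1 (R 4.3.3) was fitted to log2(FPKM + 1), which understates changes of low genes, for KO against control, with no covariate and an empirical Bayes step with a trend. Genes of any type with a mean FPKM of at least 1 were tested, with Benjamini-Hochberg adjustment of p over all of them. Log2 fold changes of single genes are on this scale, and log2 differences of sums are ratios of mean FPKM. With 2 against 2 libraries an exact permutation test of 1 gene cannot give a p under 0.333. Scripts were tested on simulated data. Positions and transcripts came from GENCODE M21 of the same build, which held all 87 members, near copies from blastn 2.17.0, and promoter windows from RefSeq. Tables were handled in Python 3.11.15 with pandas 2.3.3 and numpy 2.4.6, and figures drawn with matplotlib 3.10.9.

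The members and lists were chosen with earlier results of these data known. Named are all members past the threshold, the 3 highest Hist genes per class, the main variant genes, the members at the edge of the limit and with the extreme fold changes, list genes past the threshold and a fixed set of others. Genes named in the accounts of head-to-head pairs, near-identical copies, antisense and testis-type members were chosen after their values were seen. Pools came from littermates, but no source ties a control to a KO pool. Same-numbered libraries deviated from their group means with r = -0.113 over 11998 genes, so the numbers were not taken as pairs. Alternatives were pseudocounts of 0.1 and 5, no filter, the filter of the study (protein-coding, mean FPKM above 5 in either group), 3 other scalings, no trend, a replicate block, a crossed block, each library left out, and near-identical genes summed. The crossed block and the summed copies were added after seeing the data.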

Additional observations from a re-analysis of the deposited data

How the results depend on the processing

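*H1f0*, *H2afj* and *Hist1h2bc* stayed past an unadjusted p of 0.05 in all 15 alternatives, with log2 fold changes of 0.49 to 0.59, 0.40 to 0.43 and 0.51 to 0.69 and adjusted p-values of 0.0843 to 0.765, 0.138 to 0.765 and 0.103 to 0.765 (limma). *H2afz* lost the call in 5 of 15, *Hist3h2a* in 6 of 15 and *Hist1h2br* in 3 of 14, none with a change of sign. For the 28 named histone genes, 371 of 410 values under alternatives kept direction and side of the threshold, 14 were weaker, 8 stronger and 17 reversed. The causes were not tested. Among the alternatives, the 3 other scalings could change little, because the libraries already shared values rank by rank. Summing near-identical genes left genes outside the groups, such as *H1f0*, *H2afj* and *Hist1h2bc*, at the same values. None of the reversed values was past the threshold in the main fit, and all came from leaving out a library, which gave log2 fold changes of *H2afv* -0.01 to 0.17, *H3f3b* -0.16 to 0.07, *Hist1h1c* -0.02 to 0.27, *Hist1h1e* -0.25 to 0.49, *Hist1h2ap* -0.10 to 0.09, *Hist1h2bj* -0.24 to 0.64, *Hist1h2bn* -0.44 to 0.11, *Hist1h4i* -0.03 to 0.64, *Hist1h4m* -0.08 to 0.19, *Hist1h4n* -0.21 to 0.26, *Hist2h2bb* -0.57 to 0.50, *Casp8ap2* -0.89 to 0.09, *Chaf1a* -0.06 to 0.67, *Daxx* -0.31 to 0.10, *Npat* -0.13 to 0.01, *Pcna* -0.05 to 0.23 and *Slbp* -0.14 to 0.08.

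Leaving out each library in turn gave 3 to 6 histone genes higher in KO and 1 to 4 lower, 1 to 6 and 0 to 2 genes of both histone lists, 372 to 713 and 375 to 574 of all genes, 0 genes with an adjusted p under 0.05 (limma) in each case, and log2 differences of the variant sum of -0.214 to -0.045 and of the Hist sum of -0.083 to 0.006. Where 1 library was left out, the lone library was taken to vary like the other group. Without a filter, 5 histone genes and 1326 of all genes were higher, and without a trend 5 histone genes were higher and 1 lower. Adjusted calls numbered 8 with a pseudocount of 0.1, 2 with 5, 45 with the filter of the study, and 0 without a filter or without a trend. That filter also removed *Hira*, leaving 0 list genes lower. With the replicate block, 529 of all genes were higher and 444 lower, and the list genes numbered 1 higher and 0 lower, while 3 histone genes were higher and 2 lower. The deviations of same-numbered libraries were only weakly related (r = -0.113). A crossed pairing, chosen after seeing the data, gave 1096 of all genes higher and 1050 lower, 4 and 5 histone genes, and 10 and 5 list genes. No scaling moved the median of all genes by over 0.1, and little movement was possible between libraries that share values rank by rank.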
